A study of Mus musculus with 11 samples.

Results

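The 7 genes described here encode the E proteins Tcf3, Tcf4 and Tcf12 and their inhibitors Id1, Id2, Id3 and Id4. They were chosen by name as 2 families that act on each other, and every member was present among the 48440 genes of the culture count table and in both tissue matrices. The study deleted Syncrip, which encodes an RNA-binding protein of the hnRNP family, in the developing mouse neocortex on a C57BL/6 background. The cKO mice carried loxP sites around Syncrip and Emx1-Cre, which is active in progenitors of the dorsal telencephalon and their progeny and not in cells born in the ganglionic eminences (GE). RNA was sequenced from 3 WT and 3 cKO cultures of neural progenitor cells (NPCs), taken from the lateral ventricles at E14.5 and passaged with EGF and bFGF, and from single cells of the dorsal cortex of 1 WT and 1 cKO embryo of the same pregnant mouse at E14.5. The labels do not say whether the cultures came from separate embryos, so p-values measure only the spread between these 6 cultures, part of which may be technical.

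E proteins are basic helix-loop-helix (bHLH) factors that are made in most tissues and bind the E-box motif as dimers. In the cortex they pair with class II bHLH factors such as Neurog2 and Neurod1, which start neuronal differentiation. Id proteins have the helix-loop-helix that forms dimers but no basic region to bind DNA, so an Id bound to an E protein keeps it from its partners and from E-boxes. Id genes are classical targets of bone morphogenetic protein (BMP) signalling through Smad proteins, and high Id levels are known for holding neural progenitors in an undifferentiated state.

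In the cultures 3 of the 4 Id genes were lower in cKO and no E protein gene passed the test. Of all genes tested there, 39.5% were called and 19.8% were lower. In the tissue the pattern was another one. Apical progenitors (APs) of the cKO embryo held more Id4 RNA, less Id3 RNA and less Tcf4 RNA than those of the WT embryo, and the ratio of Id to E protein RNA, which was lower in cKO cultures, was higher in cKO APs. The lower Tcf4 level in APs was known when the genes were chosen, and it enters this ratio.

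The culture libraries held 16962903 to 22708400 counts each. The cultures expressed the progenitor genes Nes, Fabp7, Pax6 and Slc1a3, and the summed level of the 9 AP markers lay at 6250 to 7486 CPM (counts scaled to library size) in WT and 6497 to 7275 in cKO. Sox2, Tubb3, Gfap and Neurod1 were listed at 0 in every culture, as were all genes of the table that lie wholly inside another gene, so their 0 is no measurement. Syncrip itself did not pass the test in the cultures (log2 fold change 0.13, adjusted p = 0.18 by edgeR) and was not lower in the APs of the cKO embryo, at 319 CPM in WT and 328 in cKO. The counts cover the whole gene and the single-cell reads its 3′ end, while the deletion takes exons 2 to 4, so neither value checks the genotype. The study itself reported exons 2 to 4 as missing from RNA-seq tracks of cKO neurospheres. It also checked the knockout at the protein level by blot and staining. Counts of Y-linked genes were at 5903 to 9232 in WT cultures 1 and 2 and cKO culture 1 and at no more than 1 in the others, so both genotypes held cultures with and without Y-linked RNA. In the tissue 8214 cells of the WT embryo (median 11705 unique molecular identifiers, UMIs) and 9560 of the cKO embryo (median 11012.5) were kept, and 22 barcodes occurred in both. The WT embryo gave 22062 UMIs of Y-linked genes and 2 of Xist, the cKO embryo 211 and 105339, so in the tissue genotype, sex and embryo cannot be told apart.

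All coordinates are those of the count table, in mm10. Tcf3 lies on chromosome 10 at 80409514 to 80433647 and Tcf12 on chromosome 9 at 71842688 to 72111871. Id1 lies on chromosome 2 at 152736251 to 152737410, Id2 on chromosome 12 at 25093801 to 25096092, Id3 on chromosome 4 at 136143497 to 136145755 and Id4 on chromosome 13 at 48261427 to 48264036. Id genes are short and E protein genes long, as the summed exon lengths of 1160 bases for Id1 and 27382 for Tcf4 show. Of the Id4 span, 45.9% is shared with the gene A330033J07Rik on the opposite strand. Genes wholly inside another gene had no counts in this table, so reads from the shared bases of Id4 may be missing from its counts.

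Id2 and Id4 were lower in cKO cultures and Id3 was not called, and the stretches before the starts of these 3 genes, picked with those values known, are given here from RefSeq for GRCm38.p6, the assembly that mm10 names, which held a promoter for 5 of the 7 members and none for Id1, the other Id gene that was called. Each stretch is the 250 bases before the RefSeq start of the gene, read 5′ to 3′ on the strand of the gene. For Id3 that start lies inside the span of the count table, so on those coordinates the Id3 stretch is within the gene. Capitals mark CCAAT on either strand and GGCGCC, a motif bound by BMP Smads. The Id2 stretch is chr12:25096093-25096342, the Id4 stretch chr13:48260866-48261115 and the Id3 stretch chr4:136143572-136143821.
Id2: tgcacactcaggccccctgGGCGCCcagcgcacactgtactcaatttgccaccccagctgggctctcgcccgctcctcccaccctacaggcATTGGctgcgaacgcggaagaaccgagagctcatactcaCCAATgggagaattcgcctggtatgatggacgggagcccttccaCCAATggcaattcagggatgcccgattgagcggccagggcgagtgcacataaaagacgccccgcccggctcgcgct
Id4: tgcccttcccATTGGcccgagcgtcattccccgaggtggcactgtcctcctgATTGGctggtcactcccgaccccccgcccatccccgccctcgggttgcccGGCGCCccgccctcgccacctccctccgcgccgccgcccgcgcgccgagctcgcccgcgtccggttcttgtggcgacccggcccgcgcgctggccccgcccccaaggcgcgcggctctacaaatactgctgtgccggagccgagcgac
Id3: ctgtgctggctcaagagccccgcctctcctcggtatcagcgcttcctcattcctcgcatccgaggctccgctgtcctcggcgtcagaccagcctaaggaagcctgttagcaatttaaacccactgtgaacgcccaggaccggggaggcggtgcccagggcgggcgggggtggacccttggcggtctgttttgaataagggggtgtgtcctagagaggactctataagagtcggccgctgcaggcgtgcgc
Id2 held 3 matches to CCAAT and 1 to GGCGCC, and Id4 held 2 and 1. Id3 held neither and held 2 matches to GTCTG, the other letters searched for Smads. Over 27025 promoters of this length, 34.5% held CCAAT, 9.54% held GGCGCC, 42.1% held GTCTG and 1.11% held at least 2 CCAAT and a GGCGCC. The E-box letters CANNTG occurred once upstream of Id2, as CAGCTG, and not upstream of Id3 or Id4, against 66.0% of all promoters. CACGNG, letters that Hes factors bind and that overlap the E-box letters where N is T, was in none of the 3 stretches and in 23.7% of all promoters. GCGNGGGCG, the letters of Egr factors, occurred 2 times upstream of Id4 and in 4.65% of all promoters. Of the 3 starts of Tcf12, which was not called, 1 also held 2 matches to CCAAT. These matches are letters in a window and not shown to be sites in use.

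Id2, the Id gene with the most RNA in these cultures, fell in cKO. WT cultures held 188, 166 and 163 CPM of its RNA, cKO cultures 99.4, 81.3 and 93.8 CPM, and the groups did not overlap. The log2 fold change was -0.91 ± 0.09 (SE, n = 3 and 3) with an adjusted p of 4.0e-06 by edgeR's quasi-likelihood test with Benjamini-Hochberg adjustment over 14432 genes. Id4, known for its part in keeping neural stem cells quiescent and in timing their differentiation, fell by 1.07 on the log2 scale (SE 0.11, edgeR adjusted p = 5.3e-06). It stood at 52.2, 48.9 and 48.1 CPM in WT and at 27.6, 22.1 and 21.6 CPM in cKO, again with no overlap. A330033J07Rik, which shares bases with Id4, had 247, 262 and 353 counts in WT and 138, 129 and 142 in cKO. Id1, a BMP target that is high in blood vessels and in stem cells, was the lowest of the Id genes at 12.5, 13.9 and 11 CPM in WT and at 8.63, 9.09 and 7.76 CPM in cKO. It fell by 0.55 on the log2 scale (SE 0.14, edgeR adjusted p = 0.0076). All 3 calls and their direction held when any of the 6 cultures was left out.

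Id3, which is commonly co-regulated with Id1, did not pass the test. It stood at 21.3, 22.7 and 14.1 CPM in WT and at 24.7, 20.9 and 19.4 CPM in cKO, where the groups overlapped (log2 fold change 0.17 ± 0.16 SE, edgeR adjusted p = 0.44). WT culture 3 was the low one, and without it the log2 fold change was -0.02. With sex as a term in the fit the value was 0.34 and passed (adjusted p = 0.039, edgeR).

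None of the E protein genes was called. Tcf4, the E protein gene with the highest counts, lies on chromosome 18 at 69343356 to 69689079. It was at 995, 913 and 914 CPM in WT and at 1068, 990 and 978 CPM in cKO, with overlapping groups and a log2 fold change of 0.11 ± 0.08 (SE, edgeR adjusted p = 0.33). Tcf3, which encodes the splice forms E12 and E47, lay at 113, 149 and 139 CPM in WT and 127, 147 and 126 CPM in cKO, and its log2 fold change of 0.00 ± 0.10 (SE, edgeR adjusted p = 0.99) had no stable sign. Tcf12, which encodes HEB, was at 475, 419 and 358 CPM in WT and 495, 470 and 482 CPM in cKO (log2 fold change 0.21 ± 0.10 SE, edgeR adjusted p = 0.10). WT culture 1 overlapped the cKO cultures. Without it Tcf12 was called higher (0.31, edgeR adjusted p = 0.0062), as it was with sex as a term (0.28, adjusted p = 0.017).

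In all, 3 of the 7 members were called, all lower in cKO, where 39.5% of the genes tested were called, 19.8% lower and 19.7% higher. The 3 called members were also the members whose cultures did not overlap, as was the case for 50.4% of all genes tested. A share of this size is near that of the whole table, so the count of members called does not set the family apart.

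**Figure D1:**
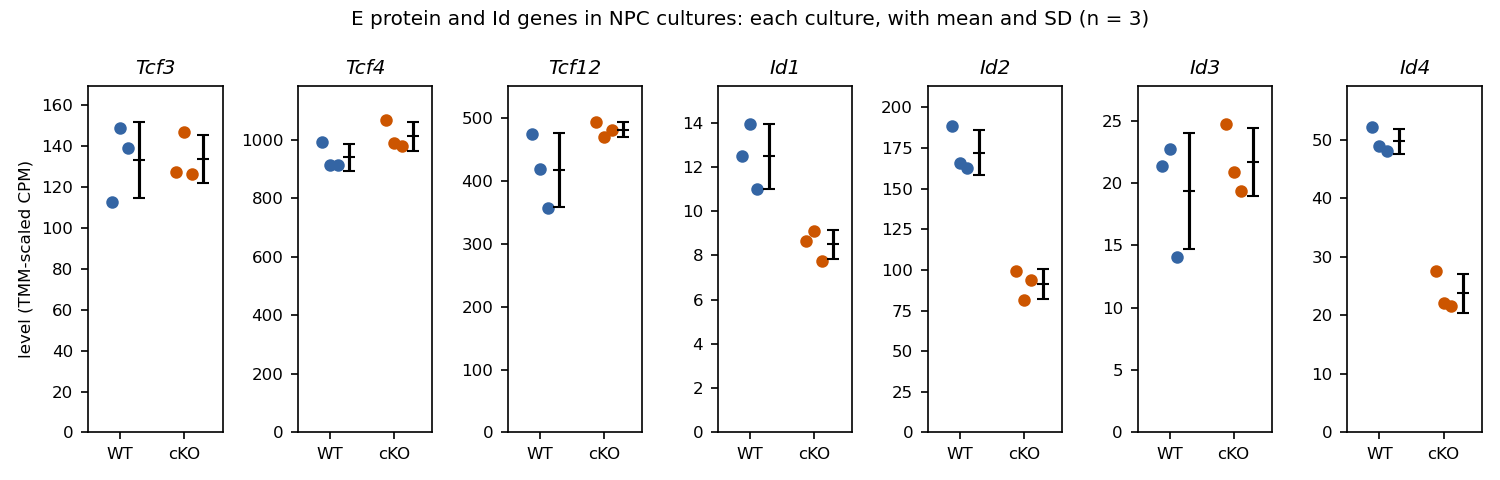
Levels of the 7 genes in each culture, in CPM scaled by trimmed mean of M-values (TMM), with blue points for the 3 WT and orange points for the 3 cKO cultures, and mean and SD in black beside them. Each vertical axis starts at 0. The cKO points of Id1, Id2 and Id4 lie below every WT point, and those of the other genes overlap with WT.

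Scaled to summed exon length, Id2 was the most abundant of the 7 RNAs in WT cultures, at 70.6 ± 5.8 CPM per kilobase (SD, n = 3) against 34.3 ± 1.7 for Tcf4, 33.0 ± 4.6 for Tcf3 and 26.9 ± 3.8 for Tcf12. In cKO cultures Id2 was at 37.5 ± 3.8, next to Tcf4 at 37.0 ± 1.8, and these neighbours did not differ beyond their spread. The lengths in the count table are whole gene spans, so reads from introns may be among the counts of the long E protein genes. The exon lengths join all annotated exons of a gene, 27.4 kilobases for Tcf4 and 15.5 for Tcf12. Levels per exon length thus compare the genes only roughly. Id2 made up 67.2% ± 2.4 of the Id level in WT and 59.4% ± 2.8 in cKO, and the share of Id3 was 10.2% ± 2.0 in WT and 19.1% ± 1.4 in cKO (SD, n = 3 each). On this scale the E protein level was split almost evenly, with 36.5% ± 2.0 from Tcf4 in WT and 36.6% ± 1.5 in cKO.

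The Id level summed over 4 genes, divided by the E protein level summed over 3, was 1.2, 1.08 and 1.06 in the WT cultures and 0.676, 0.570 and 0.628 in the cKO cultures. All cKO cultures lay below all WT cultures. The mean log2 ratio differed by -0.84 between cKO and WT (exact permutation test, two-sided, p = 0.1, n = 3 and 3), and 0.1 is the smallest p that this design allows. With lengths limited to the part of each gene that the table counts, an alternative chosen after seeing the data, the ratios were 1.5, 1.35 and 1.35 in WT and 0.822, 0.687 and 0.751 in cKO. Without length scaling they were 0.173, 0.170 and 0.167 in WT and 0.0949, 0.0830 and 0.0898 in cKO, so the size of the ratio depends on the scaling.

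The partners and relatives of the E proteins moved in both directions in the cultures. Beside each count that follows stand 39.5% of all genes tested that were called, 19.7% higher and 19.8% lower. Of 38 class II bHLH genes 9 could be tested, and 2 were higher and 4 lower, with a median log2 fold change of -0.50 against 0.00 over all genes tested. Among the lower genes were Neurod6 (-4.14, edgeR adjusted p = 1.5e-07), Neurod2 (-2.24, 4.1e-05) and Nhlh1 (-1.96, 6.1e-06), which are made in differentiating neurons. Neurog2, the main proneural factor of the cortex, rose by 0.70 (adjusted p = 0.019) from a low level of 2.21 to 3.26 CPM in WT to 4.34 to 5.0 CPM in cKO. Olig1, a factor of the oligodendrocyte line, rose by 0.44 (adjusted p = 0.003). The bHLH-Orange repressors, which oppose proneural genes downstream of Notch and other signals, had 5 of 8 tested genes higher and 1 lower, with a median of 0.47. Hes1 rose by 2.84, Hey2 by 1.31 and Bhlhe40 by 1.08, while Bhlhe41 fell by 0.50 (edgeR adjusted p from 2.5e-09 to 0.001). Of 9 tested E protein cofactors, Lmo3 (0.53) and Lmo1 (0.43) rose and Ldb2 fell by 1.76.

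BMP signalling genes, which act upstream of Id genes, were also mixed. Among 6 tested ligands Bmp7 rose by 1.58 on the log2 scale (edgeR adjusted p = 2.3e-07), Bmp2 rose by 1.15 and Bmp4 fell by 0.79. Bmp7 stood at 23.1, 25.0 and 18.5 CPM in WT and at 65.2, 68.7 and 64.4 CPM in cKO. Of 11 tested receptors and Smads, where 39.5% of all genes were called, 1 was higher, Acvr2b, and 4 were lower, with the largest falls in Smad9 (-0.64), the co-receptor Rgma (-0.47) and the receptor Bmpr1a (-0.33). Without cKO culture 2, or without cKO culture 3, 2 of these genes were called in place of 5. Of 13 antagonists and feedback genes 3 rose and 5 fell. The pseudoreceptor Bambi rose by 2.41 (adjusted p = 0.00013, edgeR), the antagonist Chrdl1 by 1.30 and the Smad corepressor Skil by 0.42, while Noggin (Nog) fell by 0.77, Nbl1 by 0.74 and Twsg1 by 0.63. The list of other BMP target genes shares Bambi, Nog, Smad6, Smad7 and Smad9 with the BMP lists above. Of its 5 tested genes 1 rose, Bambi, and 2 fell, Nog and Smad9, all of them already counted there. The medians of the ligands (0.47), receptors and Smads (0.06), antagonists (-0.09) and other targets (0.11) lay on both sides of 0.

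CDK inhibitors, several of which are known to be repressed by Id proteins and raised by E proteins in other cells, had 4 of 7 genes lower and none higher, where 19.8% of all genes were lower and 19.7% higher. Cdkn1a (p21) fell from 81.4, 98.6 and 118 CPM in WT to 28.4, 32.0 and 35.6 CPM in cKO, with no overlap (log2 fold change -1.63 ± 0.13 SE, edgeR adjusted p = 4.8e-07). Cdkn2b fell by 1.44 and Cdkn1c by 1.2. Astrocyte markers were lower as well, 7 of 8 tested, with Sparcl1 (-2.11), Aqp4 (-2.06) and Gja1 (-1.63) falling most, and the summed level of the 9 markers ran from 10353 to 13507 CPM in WT and from 5541 to 5873 in cKO. Of 7 tested neuron markers 5 were lower, led by Stmn2 (-6.56), Rbfox3 (-1.40) and Snap25 (-0.83), although the summed level of all 8 was 2071 to 2425 CPM in WT and 2205 to 2339 in cKO. Map2 (0.19) and Syt1 (0.10) were not called. Most astrocyte markers and part of the neuron markers were thus lower in the cultures where Id2 and Id4 were lower, and their part in the fall of these genes was not tested. In bulk cultures fewer cells of a type and less RNA per cell cannot be told apart.

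In the tissue, cells were clustered without the 7 genes, and clusters were named from marker lists. The named classes held 766 WT and 1105 cKO APs, 1202 and 1159 intermediate progenitors (IPs), 1410 and 1560 migrating neurons, 2637 and 2665 immature neurons and 1193 and 1642 cells from the GE, beside small classes of 18 to 111 cells per embryo. Levels are the UMIs of a gene scaled to all UMIs of the class (CPM) in 1 embryo, with exact 95% intervals that cover counting error only. UMIs come from 3′ reads, and no length scaling was used. Whether reads from introns were counted too is not given in the sources used here. Levels of long E protein genes and short Id genes therefore compare only roughly. Cells are not replicates and there is 1 embryo per genotype, so no test between genotypes was possible. Red blood cells, which should lack these RNAs, gave the level that free RNA can reach, namely 263 CPM of Tcf4 in WT and 556 in cKO, 35.6 and 151 CPM of Id2, 17.8 and 20.4 CPM of Id4, and 4.45 and 4.09 CPM of Id3, the last from a single UMI in each embryo. No Id1 UMI was found there, and the limit of 3 counts that a count of 0 allows is 13.4 CPM in WT and 12.3 in cKO (exact upper bounds 16.4 and 15.1).

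Each Id gene had its own place in the tissue. Id4 was highest in APs, at 554 CPM (95% interval 541 to 568) in WT and 683 (671 to 695) in cKO, and its mean over both embryos was 5.16 times that of the next class, the cells from the GE at 117 and 123 CPM. Id4 was at 30.3 and 44.9 CPM in IPs, 19.5 and 23.9 in migrating neurons and 16.2 and 23.0 in immature neurons. The red blood cell intervals, from 4 and 5 UMIs (4.85 to 45.6 CPM in WT and 6.64 to 47.7 in cKO), are too wide to place these levels. Endothelial cells held 6.58 CPM (2.84 to 13.0) in WT and 8.27 (3.78 to 15.7) in cKO, below the interval of IPs in both embryos (27.7 to 33.2 and 41.6 to 48.5).

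Id2 ran the other way along the cortical lineage. It was at 93.5 and 90.0 CPM in APs, at 213 and 181 in IPs, at 470 and 437 in migrating neurons and at 770 (95% interval 761 to 779) in WT and 688 (680 to 697) in cKO immature neurons, in the order WT and cKO. In APs it was above the red blood cells of the WT embryo (35.6 CPM, 15.4 to 70.2) and below those of the cKO embryo (151 CPM), so the part of free RNA in this level could not be set. Without cells called as doublets, the level in APs was 74.3 CPM in WT and 70.8 in cKO.

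Id1 and Id3 were genes of vessels and meninges. Id1 was highest in endothelial cells, at 204 CPM in WT and 174 in cKO, and stood at 37.6 and 39.6 CPM in APs, at 5.16 and 6.27 CPM in IPs and at 5.03 and 7.02 CPM in cells from the GE. Id3 was highest in meningeal fibroblasts, at 324 and 341 CPM, and endothelial cells, at 362 and 295, which did not differ beyond their intervals, followed by pericytes at 350 and 224. In the neural classes Id3 reached 25.4 and 30.5 CPM in cells from the GE and 22.3 and 11.6 CPM in APs. The single UMI of the red blood cells sets an interval that reaches 24.8 CPM in WT and 22.8 in cKO, so it cannot place the level in APs, while immature neurons of the same embryos held 0.751 and 0.770 CPM. Within the GE it sat in 1 cluster of 599 WT and 809 cKO cells, at 58.2 and 66.0 CPM, while another GE cluster of 323 WT and 531 cKO cells had 5.18 and 3.24 CPM of Id3 and 248 and 284 CPM of Id4.

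E protein genes were broad. Tcf4 was above all other members in each class. Beside the 263 and 556 CPM of red blood cells, it ran from 586 and 430 CPM in microglia to 3578 and 3187 in IPs and 3582 and 3459 in migrating neurons. These neighbours at the top did not differ beyond counting error in WT and did in cKO. Its level in APs was 2580 and 2051 CPM. Tcf12 was highest in cells from the GE at 592 and 601 CPM, followed by IPs (503 and 508) and migrating neurons (501 and 505), which did not differ beyond counting error. Tcf3 was highest in the dividing classes, at 134 and 135 CPM in APs and 122 and 129 in IPs, and lowest in the cortical lineage in immature neurons, at 44.0 and 41.6 CPM.

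**Figure D2:**
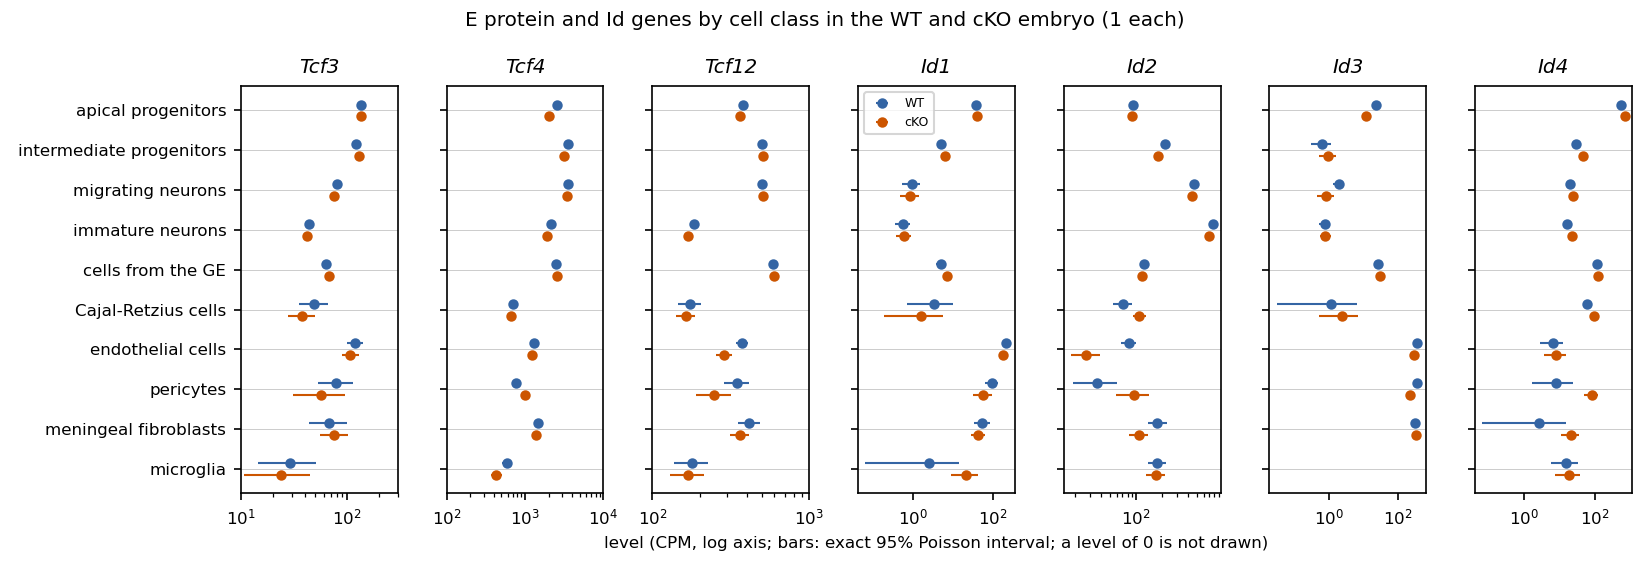
Level of each gene (CPM, log axis, with a range of its own per gene) in 10 cell classes of the WT embryo (blue) and the cKO embryo (orange), with exact 95% Poisson intervals and levels of 0 not drawn. Id4 peaks in apical progenitors, Id2 in immature neurons, Id1 in endothelial cells and Id3 in endothelial cells, pericytes and meningeal fibroblasts. Tcf4 is highest in intermediate progenitors and migrating neurons, and Tcf12 in cells from the GE, followed by those classes.

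At the level of single cells, thinned to 5000 UMIs each, 86.4% of 741 WT APs and 89.0% of 1086 cKO APs had an Id4 UMI (exact binomial 95% intervals 83.7 to 88.8% and 87.0 to 90.8%). Without thinning the shares were 94.9% and 96.9%. Thinned red blood cells had none among 15 WT cells, which allows a share of up to 20% by the limit of 3 counts (exact upper bound 21.8%), and 2 among 18 cKO cells. The median depths were 14085 and 13789 UMIs in APs and 3570 and 3100 in red blood cells. Tcf4 was found in 99.9% and 99.4% of thinned APs. A UMI of any Id gene was found in 92.7% and 94.5% of thinned APs and in 50.4% and 58.6% of thinned cells from the GE.

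Across 10 classes in 2 embryos (20 points that share library and class depth), the genes most like each member in log2(CPM + 1) among 11077 genes were as follows, by Pearson r and given as a description. Id4 went with Tmem132b (0.85), Nr2e1 (0.85) and Mir670hg (0.85), and Nr2e1 encodes the neural stem cell receptor Tlx. Id2 went with Nuak1 (0.92), Tiam2 (0.91) and Neurod2 (0.91), the last of them a factor of differentiating neurons. Id1 went with Rhoc (0.95), Csrp1 (0.95) and Wwtr1 (0.94), and Id3 with Col5a2 (0.93), S100a16 (0.92) and Gm15738 (0.92). Tcf3 was most like Cdc25a (0.98), a phosphatase that drives the cell cycle, and then Ccdc117 (0.97) and Golim4 (0.97). Tcf4 was most like Hnrnpa1 (0.96), Guf1 (0.95) and Phip (0.95), and Tcf12 most like Cux1 (0.93), Strn3 (0.93) and Hbp1 (0.92). Among the members Tcf4 and Tcf12 had an r of 0.83 and Id1 and Id3 an r of 0.77, while Id2 and Id3 had -0.51.

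Between the embryos, the APs differed most in Id3, Tcf4 and Id4. Id3 gave 273 UMIs in WT and 211 in cKO APs, a log2 ratio of cKO over WT of -0.94 (95% counting interval -1.21 to -0.68). Tcf4 gave 31654 and 37318 UMIs and a log2 ratio of -0.33 (-0.35 to -0.31), and Id4 gave 6800 and 12422 UMIs and a log2 ratio of 0.30 (0.26 to 0.34). The intervals of Tcf3 (0.01), Tcf12 (-0.04), Id1 (0.07) and Id2 (-0.06) included 0. The 3 genes passed a log2 ratio of 0.3, Id4 by the smallest margin, as did 11.3% of the 10309 genes with at least 200 UMIs in APs, 6.76% higher and 4.59% lower. Ratios larger in size than that of Id3 were found for 0.417% of these genes, larger than that of Tcf4 for 9.06% and larger than that of Id4 for 11.3%. The Tcf4 ratio in these cells was known when the genes were chosen, so it is no independent evidence of direction.

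APs formed 2 clusters, 1 of them rich in mitotic genes, and the signs of these 3 ratios were the same in both. In the mitotic cluster of 310 WT and 413 cKO cells the log2 ratios were -1.43 for Id3 (95% interval -1.83 to -1.04), -0.29 for Tcf4 and 0.24 for Id4. In the other cluster of 456 and 692 cells they were -0.43 for Id3 (-0.82 to -0.05), -0.37 for Tcf4 and 0.33 for Id4. Id1, Id3 and Id4 also varied with the assigned cell cycle phase. In WT APs Id4 was at 455 CPM in G1, 638 in S and 533 in G2M, and in cKO APs at 510, 783 and 641. Id3 was at 4.62 CPM in G1, 28.3 in S and 23.9 in G2M in WT and at 2.09, 15 and 11 in cKO, and Id1 at 13.3, 51.5 and 36.4 in WT and 16.7, 40.6 and 43.5 in cKO. Tcf4 was lower in cKO in each phase, at 2941, 2417 and 2570 CPM in WT and 2363, 1933 and 2076 in cKO. Of the WT APs 20.6% and of the cKO APs 14.2% were assigned to G1, and with the 3 phases weighted equally the log2 ratio of Id4 was 0.25.

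**Figure D3:**
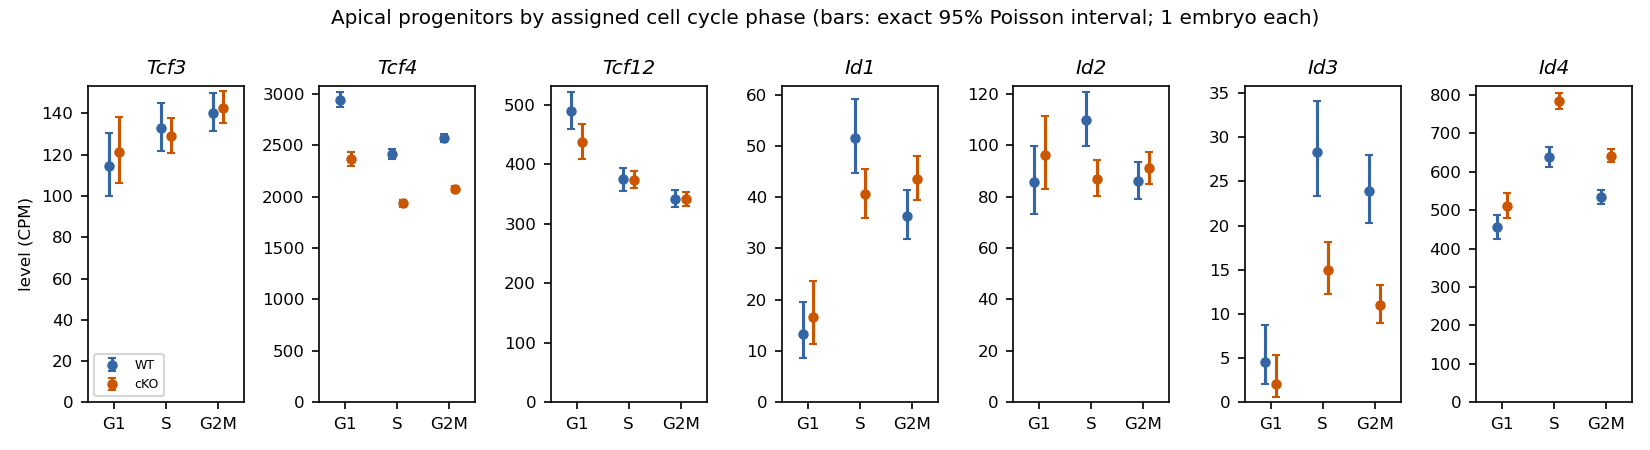
Level of each gene (CPM, axes from 0) in apical progenitors by assigned cell cycle phase, with exact 95% Poisson intervals, for the WT embryo (blue) and the cKO embryo (orange). Tcf4 is lower and Id4 higher in the cKO embryo in all 3 phases, and Id1 and Id3 are lowest in G1 in both.

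Neuronal RNA also differed between the embryos in these APs. Of 8 neuron markers 6 were higher in cKO APs by a log2 ratio of at least 0.3, as were 6.76% of all genes with 200 UMIs, led by Tubb3 (0.67), and their summed level was 673 CPM in WT and 834 in cKO. Of the class II bHLH genes 7 reached 200 UMIs, and 4 of them were higher past 0.3, namely Neurod1 (0.89), Neurod2 (0.52), Bhlhe22 (0.50) and Neurod6 (0.44), while Neurog2 was at 0.12. Called doublets made up 298 of the kept WT cells and 451 of the kept cKO cells. Without them 720 of 766 WT APs and 1004 of 1105 cKO APs were left. The log2 ratios in APs were then larger, with -0.39 for Tcf4 and 0.36 for Id4. The ratios of neuron markers and class II bHLH genes given here include the doublets, and the part of doublets in them was not tested. BMP receptors and Smads had a median log2 ratio of 0.01 in APs over 11 genes, and none passed 0.3. The 11 antagonist and feedback genes with 200 UMIs had a median of -0.10, with 1 lower past 0.3 and 0 higher, against 4.59% of all genes lower. The 3 other BMP target genes had a median of -0.08, and none passed 0.3. Smad7, a direct BMP target, did not pass 0.3, at 41.3 CPM in WT and 34.4 in cKO (log2 ratio -0.26, 95% interval -0.44 to -0.09). Among astrocyte markers 3 of 6 genes with 200 UMIs were lower past 0.3, led by Apoe (-0.71).

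Further along the cortical lineage Tcf4 had log2 ratios of -0.17 in IPs, -0.05 in migrating neurons and -0.19 in immature neurons, none of which passed 0.3. Id2 was lower by similar amounts, with -0.24 (95% interval -0.31 to -0.17) in IPs, -0.10 (-0.15 to -0.06) in migrating neurons and -0.16 (-0.19 to -0.14) in immature neurons. At a coarser clustering (resolution 0.4) the Id2 ratio of migrating neurons was 0.15. Id4 was higher by 0.57 (0.40 to 0.74) in IPs, by 0.29 in migrating neurons and by 0.51 in immature neurons. Migrating neurons joined a cluster of 882 WT and 806 cKO cells at 0.02 (-0.27 to 0.31) and another at 0.62 (0.28 to 0.97). Over all kept cells the Id4 ratio was 0.61, and the part of free RNA in the low levels of these classes could not be set. Tcf3 stayed within its interval of 0 in all 4 cortical classes. In IPs 10.2% of 9951 genes passed a log2 ratio of 0.3, 6.26% higher and 3.9% lower. In migrating neurons 8.34% of 9753 genes did, 4.69% higher and 3.65% lower, and in immature neurons 9.22% of 11437, 4.97% higher and 4.26% lower.

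Cells from the GE do not express Emx1-Cre and so are, by design, cells of the same embryos without the deletion, though these embryos also differ in sex. Syncrip RNA in the GE was at 307 CPM in WT and 266 in cKO (log2 ratio -0.21, 95% interval -0.27 to -0.14). In the cortical classes its log2 ratio ran from 0.04 in APs to 0.25 in migrating neurons. These 3′ reads do not check the deletion. In the GE the log2 ratios of Tcf4 (0.01, 95% interval -0.01 to 0.04), Id4 (0.07, -0.04 to 0.17), Id2 (-0.09, -0.20 to 0.01), Tcf12 (0.02) and Tcf3 (0.10) all had intervals that included 0. Id3 was higher, at 0.26 (0.04 to 0.49), where it was lower in APs. No member with 200 UMIs passed 0.3 in the class as a whole, against 7.79% of 9824 genes, 4.49% higher and 3.3% lower. The class joined 5 clusters that did not move alike. The log2 ratio of Tcf4 was 0.45 (0.37 to 0.52) in a cluster of 110 WT and 133 cKO cells with Top2a and Kif11, genes of dividing cells, among its leading genes. It was 0.11 (0.06 to 0.17) in the cluster of 323 and 531 cells, -0.08 (-0.11 to -0.05) in that of 599 and 809 cells and -0.19 (-0.25 to -0.13) in that of 51 and 62 cells. Id4 was at 0.19 (0.06 to 0.33) in the cluster of 323 and 531 cells and at 1.30 (0.28 to 2.43) in the smallest cluster, from 11 and 33 UMIs. Id2 was at 0.30 in the largest cluster, 0.46 in the dividing cluster, -0.36 in the smallest and -1.29 (-1.76 to -0.85, 149 and 58 UMIs) in a cluster of 110 and 107 cells, and Tcf12 was at -0.31 in the smallest. The values near 0 for the whole class thus join ratios of both signs. Whether the ratios in APs differ from those in the GE was not tested, since each rests on 1 embryo per genotype.

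**Figure D4:**
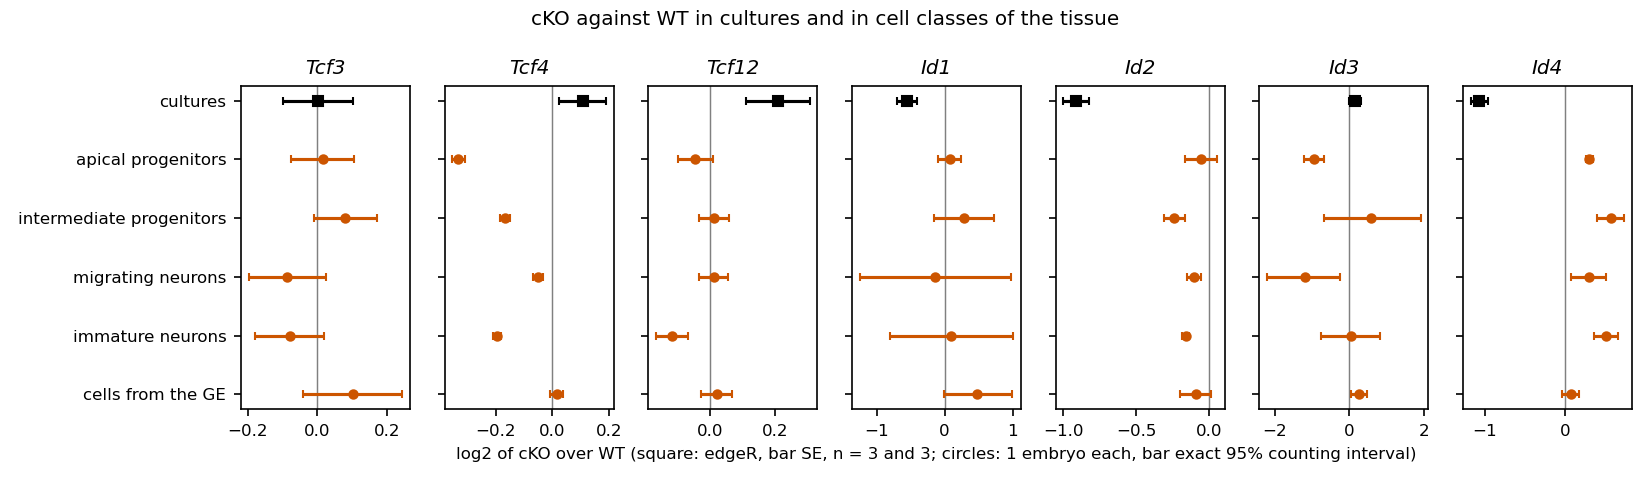
Log2 of cKO over WT for each gene in cultures (black square, edgeR, bar SE, n = 3 and 3) and in 5 cell classes of the tissue (orange circles, 1 embryo each, bar exact 95% counting interval), with a horizontal range of its own per gene. Id4 lies below 0 in cultures and above 0 in each class, and Tcf4 lies below 0 in the cortical classes and near 0 in cells from the GE.

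Id genes gave fewer UMIs than E protein genes in all classes, which compares genes of unlike length only roughly. The ratio of Id to E protein UMIs was 0.229 (exact 95% interval 0.224 to 0.234) in WT APs and 0.323 (0.317 to 0.329) in cKO APs, a log2 change of 0.50 (0.46 to 0.53). In APs Id4 gave 78.3% of the Id UMIs in WT and 82.9% in cKO, and Tcf4 gave 83.5% and 80.4% of the E protein UMIs. The summed Id level of APs was 708 CPM in WT and 824 in cKO, and the summed E protein level 3090 and 2550.5 CPM. Because the lower Tcf4 level in cKO APs was known when the genes were chosen, the change of 0.50 is no independent evidence of direction. The ratio was lowest in IPs, at 0.0594 and 0.0610, where Tcf4 was high and Id4 low. It was 0.118 and 0.114 in migrating neurons and 0.329 and 0.339 in immature neurons, where Id2 supplied 97.8% and 96.6% of the Id UMIs. In cells from the GE it was 0.0858 and 0.0864. The log2 changes of the other 4 classes lay between -0.05 and 0.04, but each joined clusters of both signs. Their clusters ran from -0.10 to 0.41 in IPs and from -0.19 to 0.26 in migrating neurons. In immature neurons they ran from -0.15 to 0.36 and in cells from the GE from -0.28 to 0.29. The highest IP value, 0.41 (0.19 to 0.62), was that of a cluster of 95 WT and 81 cKO cells led by mitotic genes. As whole classes, past 0.3 lay the APs, Cajal-Retzius cells at 0.74 (0.42 to 1.06, 63 WT and 111 cKO cells) and microglia at 0.47 (-0.01 to 0.94). So did red blood cells at 0.60 (-0.32 to 1.62) and the cells of no class at 0.38. The GE cluster of 599 and 809 cells was at 0.29 (0.16 to 0.43).

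**Figure D5:**
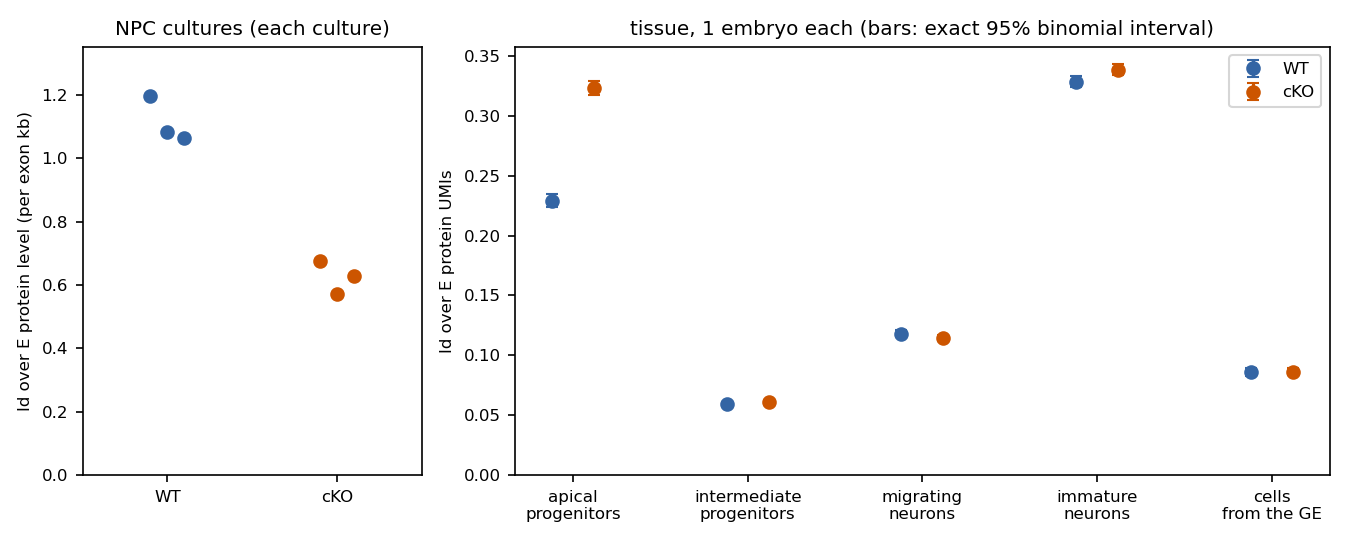
Left, the summed Id level over the summed E protein level per exon length in each culture (blue WT, orange cKO, 3 each). Right, Id over E protein UMIs in 5 cell classes of the WT and cKO embryo with exact 95% binomial intervals. Both axes start at 0 and differ in scale. The ratio is lower in every cKO culture than in every WT culture, and in the tissue it is higher in apical progenitors of the cKO embryo.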

How the data were processed

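Bulk RNA-seq of 6 NPC cultures (3 WT, 3 cKO) and 10x 3′ single-cell RNA-seq of 1 WT and 1 cKO embryo were used. The 3 LACE-seq libraries were not analysed here. A gene of the partner list is not reported here by name. The deposited bulk table holds raw counts per gene that the authors made from reads aligned to mm10 with HISAT2, with a counter not given in the sources used here. For the tissue, the deposited matrices hold UMI counts from Cell Ranger 7.0.0, per the file headers. Members and gene lists were chosen with earlier results of these data known.

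Counts were tested with edgeR 4.0.16 (quasi-likelihood, TMM, low-count filter, Benjamini-Hochberg over 14432 genes, threshold 0.05), with DESeq2 1.42.0 and limma 3.58.1 as alternatives. On data simulated with a common dispersion from these cultures (14294 genes), all of 100 genes changed by 1 on the log2 scale were recovered (100%) and 55% of those changed by 0.5. The changed genes had a mean count of at least 100 and were few among all genes. Dispersion differs by gene and many more genes were called in the real table, so these shares are not the power of the test there. Bulk depth was 16962903 to 22708400 counts. Cells were kept from 200 detected genes upward and up to 10% of UMIs from mitochondrial genes, and clustered with Seurat 5.3.0 (2000 variable genes without the members, 30 components, resolution 0.8). A cluster took a class where its mean marker z score was at least 0.5 and 3 markers were raised 1.5-fold. Clusters without both, with more markers of another class than of their own among their 10 leading genes, or with a low UMI count and no own marker there, stayed unnamed (717 WT and 1072 cKO cells). Scrublet (scanpy 1.11.5) marked doublets, which stayed in the reported values. UMIs were summed per class and embryo, with exact Poisson, conditional and binomial intervals for counting error only. Named genes were the members, Syncrip, up to 3 largest rises and falls per list among called genes, the 3 most like genes per member, and class markers. Tissue genes named from the lists, A330033J07Rik, Neurog2 and Smad7 values in APs were chosen after their values were seen. Deviations of same-numbered cultures from their group means had r = 0.30, -0.03 and 0.08, and those of differently numbered WT and cKO cultures ran from -0.35 to 0.325. The labels give no pairing, so numbers were not taken as pairs.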

Additional observations from a re-analysis of the deposited data

Results flagged for a closer look

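Id4 differed in direction between cultures and tissue. Its log2 change was -1.07 in cultures, lower in all cKO cultures, while the log2 ratio was 0.30 in APs, 0.57 in IPs, 0.29 in migrating neurons and 0.51 in immature neurons. The ratio of Id to E protein RNA likewise changed by -0.84 in cultures and by 0.50 in APs. The AP value includes the Tcf4 level, which was known when the genes were chosen. Id3 had a log2 ratio of -0.94 in APs and of 0.26 in cells from the GE. None of these differences was tested, since the tissue has 1 embryo per genotype.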

How the results depend on the processing

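The calls of Id1, Id2 and Id4 and the direction of the Id to E protein ratio in cultures were the same under each alternative run for them. Tcf3, which had no stable sign, was at -0.0022 with RLE scaling, -0.00081 with upper quartile scaling, -0.012 with no count filter, -0.0038 with DESeq2 and -0.030 with sex as a term, and ran from -0.11 to 0.073 when a culture was left out. Tcf12 passed with sex as a term (0.28), and Id3 did too (0.34). Leaving out a culture gave 0.11 to 0.31 for Tcf12 and -0.025 to 0.28 for Id3.

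With the replicate number as a block, Tcf12 was at 0.22 and passed (edgeR adjusted p = 0.030), and no other member's call changed. The count of called E protein cofactors was then 5 in place of 3. The labels do not say whether the numbers pair the cultures.

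In APs Tcf4 was at -0.36 under the stricter cell filter and -0.39 without doublets, Id2 at -0.20 at resolution 0.4, and Id4 at 0.36 without doublets and 0.25 with phases weighted equally. The log2 change of the Id to E protein ratio was then 0.60 and 0.44. In migrating neurons Id2 was at 0.15 at resolution 0.4, and the Id to E protein ratio changed by 0.29 there and by 0.15 under the stricter filter, against -0.05. The cause was not tested. Low UMI numbers of Id1 and Id3 limit their ratios outside APs and the GE.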
